A study of Mus musculus with 15 samples.

Results

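Noncoding RNAs were measured in mammary tissue of nude mice exposed to BDE-47, a polybrominated diphenyl ether flame retardant, or to vehicle. The 7 RNAs described are *Gm42418*, *Gm26917*, *Malat1*, *Neat1*, *Meg3*, *H19* and *Rmrp*, found by gene name among 52526 genes listed for each mouse. They were chosen by name with the read shares and group values of these same mice in view, so their abundance is given as a description and no test of them is independent of that choice. All mice were female nu/nu mice (Crl:NU-Foxn1nu), which lack a thymus and so most T cells. In all of them an osmotic mini-pump was placed under the skin after 8 weeks of age. BDE-47 was given to 7 mice at 0.03 mg/kg/d in PEG300 with 1% DMSO for 16 weeks, and 8 mice received PEG300 with 1% DMSO alone. Normal tissue was taken from the left 4th mammary fat pad, with 1 library per mouse. Some mice also carried a xenograft in the region, which could not be entered in a model because the labels do not give it per mouse.

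Long noncoding RNAs act as RNA and are not translated. *Malat1* and *Neat1* stay in the nucleus, the first in nuclear speckles and the second as the scaffold of paraspeckles, which are bodies of RNA and RNA-binding proteins. *Meg3* and *H19* are imprinted genes expressed from the maternal chromosome, *Meg3* beside *Dlk1* and *H19* beside *Igf2*. *Rmrp* is the RNA subunit of RNase MRP, an enzyme that cuts precursor ribosomal RNA. RefSeq classes *Malat1*, *Neat1*, *Meg3* and *H19* as long noncoding RNAs, but not *Rmrp*. *Gm42418* is the name of a gene model that RefSeq lists as a synonym of *Rn18s-rs5*, an 18S ribosomal RNA related sequence classed as a pseudogene. The files do not tell its reads apart from those of ribosomal RNA, and *Gm26917* is a gene model without an entry in the annotation used here. Values are CPM, read counts scaled to each library's mapped reads, on the log2 scale, with each gene under 1 CPM listed at 0. The libraries count the 3′ end of each RNA, so a level does not grow with transcript length.

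In the GRCm38.p6 mouse genome, the build the reads were mapped to, *Malat1* (chr19:5795690-5802672) and *Neat1* (chr19:5824708-5845480) are neighbours separated by 22036 bases. *Meg3* lies at chr12:109540996-109571729, *H19* at chr7:142575530-142578146 and *Rmrp* at chr4:43492785-43493059, and RefSeq places *Rn18s-rs5* at chr17:39846354-39848202. It overlaps another noncoding gene, *AY036118*, by 91 bases. *AY036118* was listed at 0 in all 15 mice, while *Gm42418* was the most abundant gene in each of them.

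The 3′ ends of these RNAs are shown because the assay primes DNA synthesis with oligo(dT), which pairs with a run of A. The last 60 bases of GENCODE M39 transcripts are written 5′ to 3′ with the polyadenylation hexamer AATAAA, or runs of A at the very end, in capitals.
Meg3: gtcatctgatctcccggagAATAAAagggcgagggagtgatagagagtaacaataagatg
H19: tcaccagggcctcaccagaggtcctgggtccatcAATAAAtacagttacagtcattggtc
Neat1 short: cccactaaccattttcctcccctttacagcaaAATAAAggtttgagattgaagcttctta
Neat1 long: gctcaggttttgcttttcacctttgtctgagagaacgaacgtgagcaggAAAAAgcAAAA
Rmrp: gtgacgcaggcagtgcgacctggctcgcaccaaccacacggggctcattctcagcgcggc

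*Neat1* has a short transcript of 3014 bases with the hexamer in its last 50 bases and a long one of 22397 bases without it in that window. AATAAA stood within the last 50 bases of 47.7% of 481867 transcripts, searched on the transcribed strand only. The hexamer began 41 bases before the end of *Meg3*, 26 before that of *H19* and 28 before that of the short *Neat1*, counted from its first base. Neither AATAAA nor ATTAAA was found in this window of *Rmrp*, an RNA of 271 bases that is known to carry no poly(A) tail. The long *Neat1* RNA and *Malat1* are known to be cut by RNase P and to end in an A-rich tract that is encoded in the genome. For *Malat1* the tract lies inside the transcript model, so bases 7542 to 7601 of that model are shown, with the run of 12 A in capitals.
Malat1: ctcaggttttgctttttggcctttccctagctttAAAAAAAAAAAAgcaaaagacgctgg

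The run ends 299 bases before the end of this model, which is 7886 bases long. At the end of the model itself, not shown, AATAAA began 23 bases before the last base, counted in the same way. A run of at least 12 A was present in 6.8% of 481956 transcripts. The window of *Malat1* and the end of the long *Neat1* transcript share the 16 bases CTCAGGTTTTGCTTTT upstream of their A-rich tracts. Transcripts were matched by name and no sequence is shown for *Gm42418* or *Gm26917*.

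The depth was 10.1 to 19.6 M mapped reads per mouse, recovered from the spacing of low values, so 1 CPM stands for 10.1 to 19.6 reads. Between 6932 and 12689 genes were above 1 CPM in a mouse. A value of 0 may also stand for a gene that was missed, since *Nono*, a gene for an RNA-binding protein used by most cells, was listed at 0 in 3 mice. Vehicle replicates 6 and 8 stood apart from the other mice, with all 8 listed B cell genes above 1 CPM and a summed level of 676 and 775 CPM, against 0 to 9.87 CPM in the other 13 mice. *Cd79a*, a subunit of the B cell receptor, was at 0 in those 13. BDE-47 replicate 6 also stood apart, with 95675 CPM over the 8 listed skeletal muscle genes against 47.1 to 208 CPM in the other 14 mice. Adipocyte genes summed to 451 and 1142 CPM in vehicle replicates 6 and 8, to 4127 CPM in BDE-47 replicate 6 and to 9554 to 32644 CPM in the other 12 mice. In bulk tissue, fewer cells of a type and less RNA per cell cannot be told apart.

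*Gm42418* took the largest share of reads in every mouse. Its share ranged from 5.62% (95% Wilson interval 5.60 to 5.63%) in vehicle replicate 3 to 12.3% (12.31 to 12.34%) in BDE-47 replicate 5. These intervals cover counting error only and are far narrower than the spread between mice. The vehicle mice held 5.62 to 10.8% with a median of 8.64%, and the BDE-47 mice 6.21 to 12.3% with a median of 8.87%. The groups overlapped over most of this range. Counted over the reads that fell on genes above 1 CPM, the share was 9.01 to 22.1%. The second most abundant gene was *mt-Nd4*, a mitochondrial subunit of complex I, in 12 mice, and *Gm42418* exceeded the second gene 1.82- to 12.2-fold. The lowest ratios were in BDE-47 replicate 6, where *Acta1*, skeletal muscle actin, was second, and in vehicle replicate 8, where *Igkc*, an immunoglobulin light chain, was second.

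The label of abundant RNAs held for 4 of the 7. *Malat1* was the 19th to 212th most abundant gene, with a median rank of 24, and took 0.0295 to 0.149% of reads. *Neat1* ranked 54th to 264th with 0.0218 to 0.0656% of reads, and *Gm26917* ranked 132nd to 1776th with 0.00412 to 0.0334%. *Meg3* was above 1 CPM in 10 mice, *H19* in 5 and *Rmrp* in 1. The order of the medians was *Gm42418*, *Malat1*, *Neat1* and *Gm26917*, at 16.44, 10.08, 8.65 and 7.25 log2(CPM). The ranges of *Malat1* and *Neat1* over all mice overlapped, as did those of *Neat1* and *Gm26917*, whereas no value of another RNA reached that of *Gm42418*. *Malat1* exceeded *Neat1* in 14 of 15 mice, and the ratio of *Malat1* to *Neat1* was 0.884 in BDE-47 replicate 6 and 1.27 to 5.32 in the others.

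**Figure D1:**
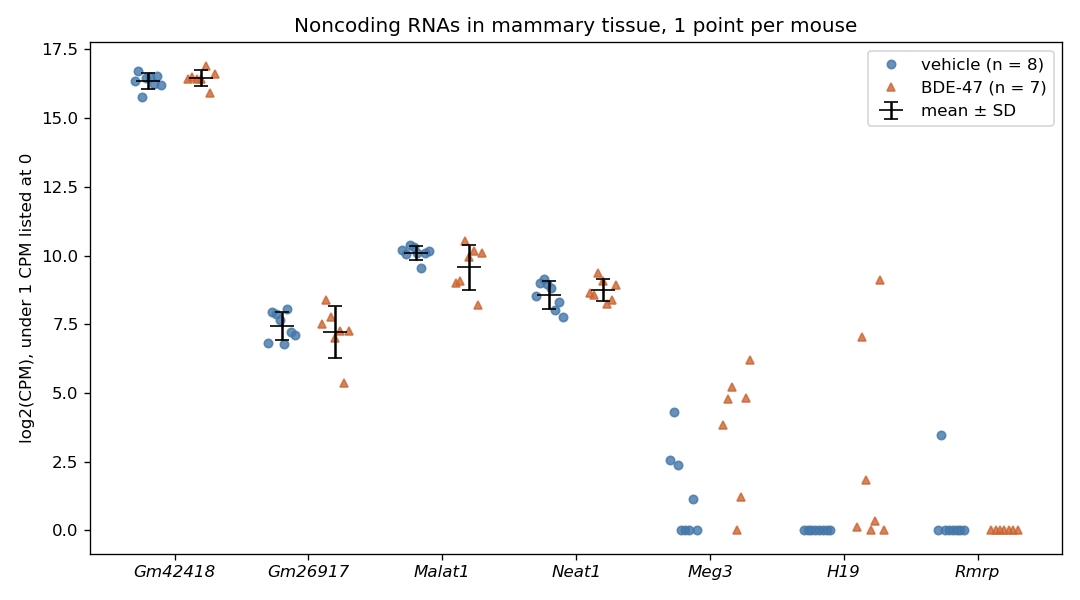
Levels of the 7 noncoding RNAs, as log2(CPM) on the vertical axis, with 1 point per mouse (circles, 8 vehicle mice; triangles, 7 BDE-47 mice) and bars for the mean ± SD of the RNAs that were above 1 CPM in every mouse. *Gm42418* lies between 15.78 and 16.91 in all mice, and the points at 0 are genes listed under 1 CPM.

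Levels of *Gm42418* varied little between mice. Its SD over the 15 mice was 0.28 on the log2 scale, and 3 of the 2579 genes above 1 CPM in every mouse had a lower one. *Neat1* had an SD of 0.45, *Malat1* of 0.64 and *Gm26917* of 0.72, against a median of 1.00 over all 2579 genes. SDs fall with abundance in these data. Among the 74 genes at least as abundant as *Neat1* on average, the median SD was 0.61, which *Malat1* exceeded slightly and *Neat1* did not reach.

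**Figure D2:**
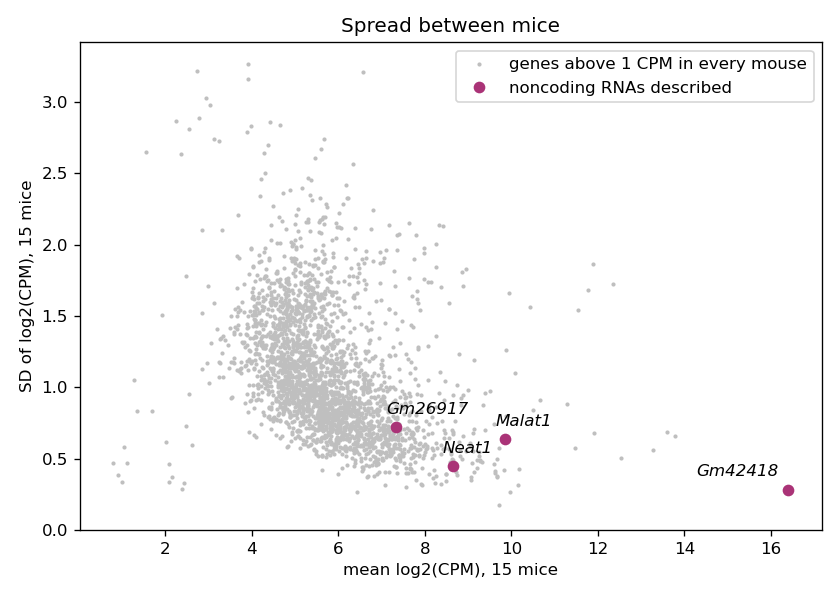
Mean log2(CPM) over the 15 mice (horizontal axis) against the SD of log2(CPM) over the same mice (vertical axis), with 1 small point for each of the 2579 genes above 1 CPM in every mouse and large points for *Gm26917*, *Neat1*, *Malat1* and *Gm42418*. *Gm42418* has the highest mean of all, with an SD of 0.28.

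*Gm26917* and *Gm42418* did not keep a fixed ratio. *Gm26917* stood at 0.0664 to 0.417% of the level of *Gm42418*, lowest in BDE-47 replicate 6 and highest in vehicle replicate 3. Across the 15 mice their log2 levels had a Pearson's r of 0.27 (permutation p = 0.318) and a Spearman's rho of 0.182 (permutation p = 0.512). Without the pair of mice farthest from the median of *Gm42418*, r was 0.0458, and without BDE-47 replicate 6 it was -0.139. Within the groups r was -0.185 in vehicle mice (exact p = 0.691) and 0.638 in BDE-47 mice (exact p = 0.132). *Malat1* and *Neat1* had an r of 0.325 (permutation p = 0.238) and a rho of 0.311 (permutation p = 0.257), with 0.371 without the pair of mice farthest from the median of *Malat1*. Within groups r was 0.522 in vehicle mice (exact p = 0.18) and 0.591 in BDE-47 mice (exact p = 0.16). *Gm42418* and *Malat1* had an r of 0.26 (permutation p = 0.344) and a rho of -0.0821 (permutation p = 0.773), with 0.0968 without the farthest pair. Within groups r was -0.214 in vehicle mice (exact p = 0.547) and 0.67 in BDE-47 mice (exact p = 0.0966). None of these 3 relations was detected with 15 mice, each with a permutation p of 0.344 after Benjamini-Hochberg adjustment over these 3. So few mice cannot exclude a moderate relation. Another 6 planned pairs were not computed because 1 gene of the pair was at 0 in more than 8 mice.

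The genes whose levels were most like those of each RNA, among 2578 others above 1 CPM in every mouse, are given as a description over mice that share depth and tissue makeup. *Neat1* was most like *Hp*, the plasma protein haptoglobin (r = 0.914), *Rbp4*, a retinol carrier (r = 0.831), and *Cavin2*, a protein of caveolae (r = 0.822). *Neat1* was lowest in vehicle replicates 8 and 6, at 7.77 and 8.02 log2(CPM), the mice with the lowest sums of adipocyte genes. The part of tissue makeup in this was not tested. *Gm26917* was most like *Cltc*, the clathrin heavy chain (r = 0.927, and 0.821 without BDE-47 replicate 6), followed by *Ptbp1*, a splicing regulator (r = 0.884, and 0.712 without it). *Malat1* was most like *Cp*, ceruloplasmin, with r = 0.821, and 0.593 without BDE-47 replicate 6. That mouse held the lowest *Malat1* and *Gm26917* of all, at 8.21 and 5.37 log2(CPM). *Gm42418* was most like *Tceal9* (r = 0.816) and *Clic1*, an intracellular chloride channel protein (r = 0.779). For comparison, 90% of the other genes had an r with *Gm42418* between -0.466 and 0.505.

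Whether a mouse with more reads on *Gm42418* had fewer detected genes was examined next. The share of *Gm42418* and the number of genes above 1 CPM come from the same library and share its depth. On the log2 scale r was -0.205 (permutation p = 0.455) and rho was -0.379 (permutation p = 0.166, n = 15). Without the mice with the most genes, BDE-47 replicate 3 (12689 genes) and vehicle replicate 1 (11490 genes), r was -0.374. Within groups r was -0.28 (exact p = 0.416) in vehicle mice and -0.223 (exact p = 0.62) in BDE-47 mice. The limma slope of *Gm42418* was -0.04 log2 per 1000 genes (SE 0.06, adjusted p = 0.993). BDE-47 replicate 3 detected the most genes of all with 8.72% of its reads on *Gm42418*, close to the 8.70% of BDE-47 replicate 4, which detected the fewest. These are single mice, and each r, rho and slope given above for *Gm42418* was below 0. No relation was detected, but 15 mice cannot exclude a moderate one. CPM is scaled to all mapped reads, so more reads on *Gm42418* lower the CPM of every other gene in that library.

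The other RNAs had no detectable relation to the number of genes over all 15 mice, at this sample size. Over the 15 mice r was -0.0169 for *Gm26917* (permutation p = 0.948, rho 0.129 with permutation p = 0.647), 0.0261 for *Malat1* (permutation p = 0.928, rho 0.179 with permutation p = 0.523) and 0.181 for *Neat1* (permutation p = 0.523, rho 0 with permutation p = 1). *Malat1* turned to -0.569, *Neat1* to -0.224 and *Gm26917* to -0.0716 without the same pair of mice, and no p was computed for these values. The r of *Malat1* over all mice thus depended on that pair. *Meg3* had an r of 0.361 (permutation p = 0.192, rho 0.396 with permutation p = 0.144), and 0.221 without that pair. In vehicle and BDE-47 mice apart, r was -0.286 and 0.127 for *Gm26917* (exact p = 0.614 and 0.779), 0.19 and 0.0838 for *Malat1* (exact p = 0.5 and 0.856), 0.0369 and 0.283 for *Neat1* (exact p = 0.95 and 0.551), and 0.301 and 0.363 for *Meg3* (exact p = 0.489 and 0.423). Of the 9511 genes tested, 0 had a slope past an adjusted p of 0.05 in limma, and 254 (2.67%) had an unadjusted p under 0.05, none of them among the 5 RNAs tested. The lowest adjusted p for the 5 was 0.993, and a Benjamini-Hochberg adjustment over all genes tested was used in every limma fit. The permutation and exact p-values against the number of genes were not adjusted. The slopes were above 0 in 77.7% of genes tested and in 3 of the 5 RNAs. A gene that crosses 1 CPM raises both its own level and the number of genes. Slopes above 0 are thus partly built in for genes not above 1 CPM in every mouse, *Meg3* among them.

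**Figure D3:**
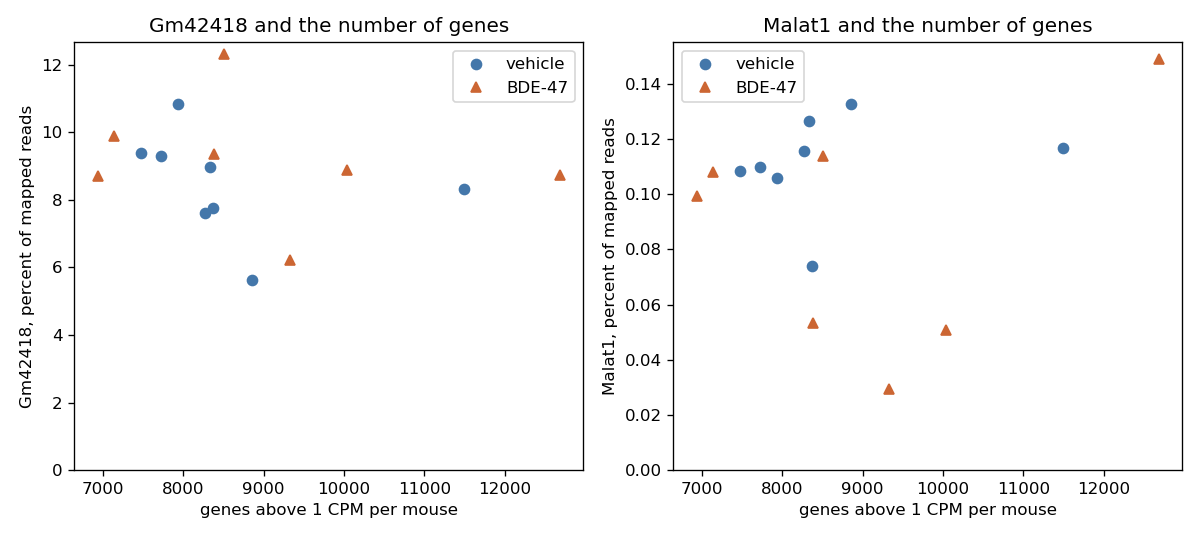
Share of mapped reads in percent (vertical axes, from 0) of *Gm42418* (left) and *Malat1* (right) against the number of genes above 1 CPM in the same mouse (horizontal axes), with circles for vehicle and triangles for BDE-47 mice. The mice with 11490 and 12689 genes lie far to the right, with shares of *Gm42418* near those of the other mice.

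*Gm42418*, *Gm26917*, *Malat1* and *Neat1* did not differ detectably between BDE-47 and vehicle mice. *Gm42418* took 8.47% ± 1.55 (SD, n = 8) of reads in vehicle mice and 9.15% ± 1.82 (SD, n = 7) in BDE-47 mice, with an exact permutation p of 0.456. In limma on log2(CPM) it differed by 0.11 (SE 0.20, 95% interval -0.30 to 0.51, adjusted p = 0.994). *Gm26917* took 0.0183% ± 0.00629 in vehicle and 0.0172% ± 0.00899 in BDE-47 mice (SD, exact permutation p = 0.794), and its limma difference of -0.22 (95% interval -1.04 to 0.60) became 0.09 without BDE-47 replicate 6.

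*Malat1* was between 9.53 and 10.37 log2(CPM) in vehicle mice, with a median of 10.14, and between 8.21 and 10.54 in BDE-47 mice, with a median of 9.96. BDE-47 replicates 1, 2 and 6, at 8.99, 9.06 and 8.21, were below every vehicle mouse, and the other 4 lay within the vehicle range or above it. The limma difference was -0.53 (SE 0.30, 95% interval -1.15 to 0.08, adjusted p = 0.982). It was -0.30 without BDE-47 replicate 6, which shows the skeletal muscle genes. The share of reads was 0.111% ± 0.0176 in vehicle and 0.0863% ± 0.0426 in BDE-47 mice (SD, exact permutation p = 0.151), and this p was 0.029 without BDE-47 replicate 3, the BDE-47 mouse with the highest *Malat1*. *Neat1* was between 7.77 and 9.14 in vehicle mice and between 8.24 and 9.36 in BDE-47 mice, with a limma difference of 0.18 (95% interval -0.46 to 0.81, adjusted p = 0.994). Its share was 0.0398% ± 0.0126 in vehicle and 0.0443% ± 0.0127 in BDE-47 mice (SD, exact permutation p = 0.499). Without vehicle replicates 6 and 8, the mice with B cell genes, the difference of *Neat1* was -0.05. The ratio of *Malat1* to *Neat1* was 2.08 to 5.32 in vehicle mice and 0.884 to 3.76 in BDE-47 mice, so the groups overlapped, and this ratio was not tested.

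*Meg3* was listed above 1 CPM in 4 of 8 vehicle and 6 of 7 BDE-47 mice. In vehicle mice it was at 4.30 log2(CPM) in replicate 2, 2.56 in replicate 1, 2.38 in replicate 3 and 1.14 in replicate 7, and at 0 in replicates 4, 5, 6 and 8. In BDE-47 mice it was at 6.20 in replicate 7, 5.23 in replicate 3, 4.81 in replicate 6, 4.76 in replicate 2, 3.85 in replicate 1 and 1.199 in replicate 5, and at 0 in replicate 4. Thus 4 BDE-47 mice were above every vehicle mouse, and the groups overlapped below. These levels rest on 33 to 861 reads. The limma difference was 2.42 on the log2 scale with 0 for values under the floor (SE 1.09, 95% interval 0.21 to 4.63), and did not pass the adjustment (unadjusted p = 0.0324, adjusted p = 0.982). In share of reads the exact permutation p was 0.0165, and 0.0364 on the log2 scale. This p is 1 of 7, unadjusted, for RNAs picked with their values known. Without BDE-47 replicate 6 the limma difference was 2.24 (unadjusted p = 0.0568), and without that mouse and vehicle replicates 6 and 8 it was 1.81 (unadjusted p = 0.16). Both vehicle mice with B cell genes were at 0, and the part of tissue makeup in this difference was not tested.

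For the background, 0 of 9511 genes passed an adjusted p of 0.05 (0%), and 443 (4.66%) had an unadjusted p under 0.05, of which 184 (1.93% of genes tested) were higher and 259 (2.72%) lower with BDE-47. Among the 5 RNAs that passed the filter on low values, 0 passed the adjusted p and 1, *Meg3*, had an unadjusted p under 0.05. *H19* and *Rmrp* were above 1 CPM in too few mice to enter this fit. A mean log2(CPM) higher by more than 1 with BDE-47, without a test, was found for *Meg3* and *H19* and for 1626 of 16314 genes (9.97%) listed above 0 in any mouse. Of 793 genes above 1 CPM in exactly 10 mice, 179 (22.6%) had at least 6 of these mice in the BDE-47 group, as *Meg3* did.

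None of the 8 vehicle mice had *H19* above 1 CPM (0 in each), and 5 of 7 BDE-47 mice did. It was at 9.12 log2(CPM) in BDE-47 replicate 6, at 7.04 in replicate 2, at 1.81 in replicate 3, at 0.32 in replicate 5 and at 0.13 in replicate 1, and at 0 in replicates 4 and 7. Only replicates 6 and 2 were well above the floor, with 10872 and 1940 reads, and the other 3 values rest on 49, 18 and 11 reads. In share of reads the exact permutation p was 0.00699, unadjusted and for an RNA picked with its values known. On the log2 scale the exact permutation p was the same. All vehicle mice were at 0, so this p depends only on which mice were above 1 CPM and not on their levels. It was 0.021 at most when any 1 mouse was left out, with the same limit. In limma without the filter on low values the unadjusted p was 0.0512 and the adjusted p 0.807. Of 696 genes above 1 CPM in exactly 5 mice, 5 (0.718%) had all of them in the BDE-47 group and 6 had all of them in the vehicle group.

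*H19* is known to stay on in adult skeletal muscle, and its highest level was in BDE-47 replicate 6, the mouse with the skeletal muscle genes. *Acta1* was at 15.06 log2(CPM) there and at 4.28 to 6.16 in the other 14 mice, or 0.0568 to 0.21% of the CPM of replicate 6. *H19* in BDE-47 replicates 1, 5 and 3 stood at 0.197, 0.225 and 0.633% of its CPM in replicate 6. In replicate 2 it stood at 23.7%, while *Acta1* there stood at 0.0839% and the summed muscle genes at 67.0 CPM, within the range of the vehicle mice. The part of muscle in the level of *H19* was not tested in any of these mice. *Igf2*, the growth factor gene next to *H19*, was above 1 CPM in 3 vehicle and 3 BDE-47 mice, at 3.81 log2(CPM) in BDE-47 replicate 6 and at 0 in replicate 2. *Rmrp* was at 3.45 log2(CPM), 162 reads, in vehicle replicate 2 and at 0 in the other 14 mice, as were 2553 genes (15.6% of 16314) that were above 1 CPM in exactly 1 mouse.

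**Figure D4:**
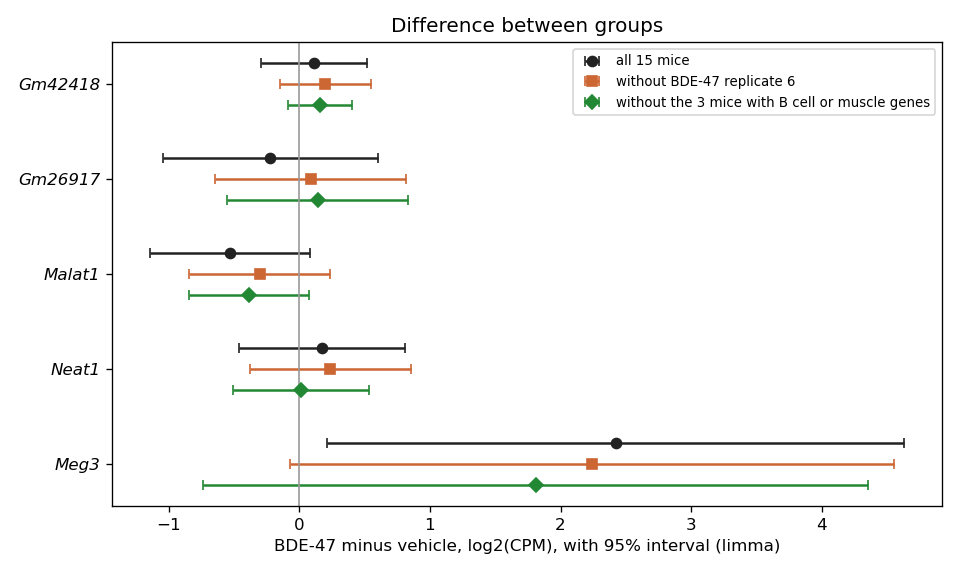
Difference of log2(CPM) between BDE-47 and vehicle mice (horizontal axis; points, limma estimate; bars, 95% interval) for the 5 RNAs above 1 CPM in at least 7 mice, with all 15 mice, without BDE-47 replicate 6, and without vehicle replicates 6 and 8 and BDE-47 replicate 6. The interval of *Meg3* lies above 0 with all mice (0.21 to 4.63) and crosses 0 in both other settings, and that of *Gm26917* crosses 0 in all of them.

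Other noncoding RNAs and partners were examined by list. Of 19 nuclear long noncoding RNAs found, 6 were tested and 0 passed the adjusted p in limma, with a median difference of 0.50 against -0.02 over all genes tested, and none had an unadjusted p under 0.05. Without the filter on low values the median was 0.10 over 16 genes, 9 of them higher and 7 lower. *Xist*, the RNA that silences an X chromosome in females, was at 4.88 log2(CPM) in BDE-47 replicate 6 and at 6.45 to 8.53 in the other mice. It shared its lowest mouse with *Malat1* and *Gm26917*, the mouse with the lowest scaling factor. Of 27 imprinted genes found, 13 were tested, 0 passed the adjusted p, and the median difference was 0.22. *Ndn*, a maternally imprinted gene, differed by 2.19 (SE 1.05, unadjusted p = 0.0437, adjusted p = 0.982), with 3 of 8 vehicle and 7 of 7 BDE-47 mice above 1 CPM. It was the 1 of 13 with an unadjusted p under 0.05, against 4.66% of all genes tested, and 16 of the 793 genes above 1 CPM in exactly 10 mice (2.02%) had the same split between the groups. In the region of *Meg3*, *Rian* and *Rtl1* were at 0 in all mice, *Mirg* and *Dio3* were above 1 CPM in 1 mouse each and *Dlk1* in 2, too few for a comparison with *Meg3*.

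Of 18 small nucleolar RNA host genes found, 16 were tested and 0 passed the adjusted p, with a median difference of 0.23. *Snhg6* differed by -2.08 (SE 0.89, unadjusted p = 0.0252, adjusted p = 0.982). It was the 1 of 16 with an unadjusted p under 0.05 in limma, against 4.66% of all genes tested. *Gas5*, another host gene, was at 6.96 to 8.98 log2(CPM) in all mice and differed by 0.26 (SE 0.35). All 8 listed paraspeckle protein genes, whose products bind *Neat1*, were tested and 0 passed the adjusted p, with a median difference of -0.31. *Matr3* differed by -1.30 (SE 0.50, unadjusted p = 0.0133, adjusted p = 0.982), *Sfpq* by -0.19 (SE 0.48) and *Nono* by 0.11 (SE 1.06). Of these 8 genes 1, *Matr3*, had an unadjusted p under 0.05 in limma, against the same 4.66% of all genes tested. Of 10 RNase MRP protein genes found, the protein partners of *Rmrp*, 5 were tested, with a median difference of 0.35 and 0 past the adjusted p.

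Small structured RNAs, most of which carry no poly(A) tail, were listed at low levels. Of 17 found, 7 (41.2%) were above 1 CPM in any mouse, against 31.1% of all 52526 genes, and their summed level was at most 24.8 CPM. *Rpph1*, the RNA of RNase P, and *Terc*, the telomerase RNA, were listed at 0 in every mouse, and *Rn7sk* was above 1 CPM in 1 mouse. A 0 in every mouse does not show that an RNA was absent, because 6 of the 15 mitochondrial transcripts found, *mt-Co2*, *mt-Co3*, *mt-Nd3*, *mt-Nd4l*, *mt-Atp6* and *mt-Atp8*, which nearly all cells use, were also listed at 0 in all mice. The mitochondrial ribosomal RNAs *mt-Rnr2* and *mt-Rnr1* were at 11.40 to 13.16 and 10.36 to 12.43 log2(CPM), and *Gm42418* exceeded both in every mouse. The part of poly(A) tails in these levels was not tested. The 9 mitochondrial transcripts above 0, these ribosomal RNAs among them, were tested and 0 passed the adjusted p, with a median difference of 0.34. *mt-Nd6* differed by -2.18 (SE 1.07, unadjusted p = 0.0477, adjusted p = 0.982). It was the 1 of 9 with an unadjusted p under 0.05 in limma, against 4.66% of all genes tested. Among the other genes listed with ribosomal RNA, *Gm15564* and *Lars2* were tested, with differences of 0.57 (SE 1.01) and 0.00 (SE 0.49), and *Lars2* was at 4.70 to 6.87 log2(CPM) in all mice.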

How the data were processed

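RNA from mammary tissue of 15 mice, 8 vehicle and 7 BDE-47, was sequenced with QuantSeq 3′ FWD by the authors, mapped with STAR 2.5.3a to GRCm38 per the submitters' processing notes, and deposited as log2(CPM), with genes under 1 CPM at 0 as read from the values. Each mouse had 52636 entries, and where a name recurred the entry with the highest mean was kept, which removed 110. Depth was recovered from the spacing of CPM values, at 10.1 to 19.6 M reads, and 100% of the values checked were whole reads within 0.05 reads. The check left out the highest CPM values, all those of *Gm42418* among them. Groups came from the labels. The 7 RNAs and all lists were chosen with earlier results of these data known. Other genes of the lists are named where their unadjusted p was under 0.05, where they were above 1 CPM in all mice, as neighbours or partners of an RNA described, or as the genes most correlated with it. *Cd79a*, *Acta1*, *Igkc*, *mt-Nd4*, *Nono* and the mitochondrial genes at 0 were named after their values were seen.

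Genes above 1 CPM in at least 7 mice (9511) were tested with limma 3.58.1 (R 4.3.3, trend), two-sided, Benjamini-Hochberg over all of them. Shares were compared with exact permutation tests, two-sided, over 6435 regroupings (smallest p possible 0.000155). Correlations used 100000 permutations, exact within groups. Nothing in the labels says more of the mice than 1 library each, so p-values measure the spread between these samples. On simulated data limma recovered 43% of genes with a log2 change of 3 and 0.5% with a change of 1. Values were drawn independently from a normal distribution with each gene's mean and SD, and values under 0 were set to 0. The changed genes were picked at random from all 9511, genes near the floor included. These percentages thus do not give the power for any 1 RNA described. Sequences were read from GENCODE M39 transcripts and positions from RefSeq on GRCm38.p6. Python 3.11.15, numpy 2.4.6, scipy 1.17.1 and pandas 2.3.3 were used, with matplotlib 3.10.9 for figures. Alternatives were other pseudocounts, filters, scalings, covariates and left-out mice.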

Additional observations from a re-analysis of the deposited data

Results flagged for a closer look

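In 22 groups of mice and measures examined for 1 value far from the rest, 4 were found. The rule flags about 1 in 20 by chance if values are normally distributed and the groups independent. Neither holds here, so the count is not compared with that rate. *Malat1* was at 9.53 log2(CPM) in vehicle replicate 6 against 10.05 or more in the other vehicle mice. *Rmrp* was at 3.45 log2(CPM) in vehicle replicate 2 and at 0 in the others, a pattern that the rule always flags. Vehicle replicate 1 had 11490 genes above 1 CPM, against 8856 at most in the other vehicle mice. The ratio of *Malat1* to *Neat1* was 5.32 in vehicle replicate 8 and at most 3.42 in the other vehicle mice.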

How the results depend on the processing

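No gene passed an adjusted p of 0.05 for BDE-47 or for the slope on the number of genes in limma under any alternative other than the next. Without the 3 mice with B cell or muscle genes, a setting chosen after seeing the data, 2 genes passed for BDE-47. The labels do not say whether the replicate numbers pair the mice. Of 7 same-numbered pairs, 0 had a correlation of their deviations from the group mean above 0.1. The median was 0.024 for the same number and -0.003 for other numbers. Low correlations over all genes cannot exclude a pairing. With the replicate number as a block 0 genes passed. At an unadjusted p under 0.05 in limma, 169 genes were then higher and 213 lower, against 184 and 259 without the block. No RNA described changed its side of the adjusted threshold.

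*Meg3* kept its direction in limma, at 1.81 to 3.61 over alternatives and 2.01 to 3.04 with each mouse left out. *Malat1* kept its direction too, at -0.61 to -0.39 and -0.69 to -0.30. *Gm42418* was at 0.07 to 0.20 over alternatives and 0.03 to 0.20 with each mouse left out. The sign of the difference of *Gm26917* turned without the 3 mice (0.139) and that of *Neat1* turned without vehicle replicates 6 and 8 (-0.0479). With each mouse left out, *Gm26917* ranged from -0.417 to 0.0867, and its difference in share from -0.00377 to 0.00112 percentage points. The difference in share of *Malat1* ranged from -0.0354 to -0.0155, with an exact p of 0.029 without BDE-47 replicate 3 and above 0.05 otherwise. The exact p for the share of *Meg3* was 0.004 to 0.0406 and that of *H19* 0.003 to 0.021 with each mouse left out. For *H19* this range depends only on which mice were above 1 CPM, since every vehicle mouse was at 0. The slope of *Gm26917* per 1000 genes turned to 0.0117, 0.137 and 0.767 with the genes above 2, 5 and 10 CPM counted, to 0.0044 with CPM rescaled to the genes above the floor, to 0.00284 with group as a covariate, and to 0.0286 without the 3 mice. That of *Malat1* turned with depth as a covariate (-0.00169) and without the mice farthest from the median (-0.429), as did that of *Neat1* in the latter (-0.114). With each mouse left out, these slopes ranged from -0.114 to 0.0455, -0.137 to 0.0465 and -0.0638 to 0.0845. The correlations of *Gm42418* with *Gm26917* and *Malat1* turned to -0.139 and -0.117 without BDE-47 replicate 6. The cause of these turns was not tested. At this depth a gene under 10.1 to 19.6 reads could not be seen.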
